A study of Mus musculus with 46 samples.

Results

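Tumours with many and with few macrophage transcripts were compared among synovial sarcomas that held little skeletal muscle. The 12 tumours were selected on 2 measured genes from 46 mouse tumours, each sequenced as 1 library. Among the 37 tumours of the hSS2 background, the 18 with the lowest Ttn were kept. Ttn encodes titin, the giant spring protein of striated muscle. Levels are given as CPM, a gene's count per 1000000 counts of its library. Of these 18, the 6 with the highest Csf1r formed the macrophage-rich class and the 6 with the lowest formed the macrophage-poor class. Csf1r was 46.3 to 108 CPM in the macrophage-rich class (median 62.9) and 9.69 to 22.6 CPM in the macrophage-poor class (median 13.9). The nearest tumours outside the classes held 36.9 CPM and 24.2 CPM. The highest Ttn among the 18 was 562 CPM, and the next tumour outside them held 2712 CPM.

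All mice carried a conditional human fusion gene, SS18::SSX2 in hSS2 mice (SSM2 in the labels) and SS18::SSX1 in hSS1 mice. TATCre protein, a Cre recombinase that enters cells, was injected into a limb of each pup to switch the fusion on, and tumours were taken at necropsy. TATCre acts on whichever cells take it up, so the fusion is not tied to a cell type by a promoter of the Cre. The floxed groups also carried conditional alleles of Pbrm1, Arid1a or Arid1b, which encode subunits of BAF chromatin remodelling complexes. Of the hSS2 tumours, 13 were controls and 8 each carried floxed Pbrm1, Arid1a or Arid1b (Pbrm1-fl, Arid1a-fl, Arid1b-fl). The 9 hSS1 tumours were 5 controls and 4 with floxed Pbrm1. Every tumour came from a mouse with its own number. The macrophage-rich class held control replicates 2 and 9, Pbrm1-fl replicates 4 and 5, Arid1a-fl replicate 3 and Arid1b-fl replicate 5. The macrophage-poor class held control replicate 10, Pbrm1-fl replicates 7 and 8, Arid1a-fl replicate 7 and Arid1b-fl replicates 2 and 6.

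Csf1r is the receptor for the growth factors Csf1 and Il34, which macrophages need to survive and divide. Tissue macrophages engulf dead cells through scavenger and Fc receptors, make complement C1q, digest their cargo in lysosomes and present peptides on MHC class II. In many sarcomas they are among the most common immune cells of the tumour. In bulk tissue, a lower level cannot separate fewer cells of a type from less RNA per cell.

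Libraries held 15652812 to 18354868 counts in the macrophage-rich class and 14436737 to 19568596 in the macrophage-poor class. More genes were detected in every macrophage-rich library (27419 to 28229) than in any macrophage-poor one (25843 to 27121), and the part of this in the results was not tested. Mitochondrial genes took 1.59% to 2.58% of counts in the 12. The floxed gene was lower in its own group than in every control for Pbrm1 (94.1 to 134 CPM against 180 to 324 CPM). For Arid1a, the control replicate 9 library held 254 CPM while tumours labelled Arid1a-fl spanned 239 to 288 CPM, which goes against its label. The next lowest control held 361 CPM. For Arid1b, the Arid1b-fl replicate 2, 4 and 7 libraries held 285, 348 and 236 CPM, within the 230 to 678 CPM of the controls. Replicates 4 and 7 lie outside the 18 and enter the later fits by their labels. In the macrophage-rich class, Arid1b-fl replicate 5 stood apart in blood genes, with 20150 CPM of the beta-globin gene Hbb-bs against 22 to 158 CPM in the other 5. Control replicate 2 held both Xist (2690 CPM) and the Y-linked Ddx3y (72.3 CPM). The marker counts and the counts over all genes are given with and without these last 2 libraries, and so are values that Arid1b-fl replicate 5 moved most. Xist was 37 to 4992 CPM in the macrophage-rich class and 1.43 to 6189 CPM in the macrophage-poor class.

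**Figure D1:**
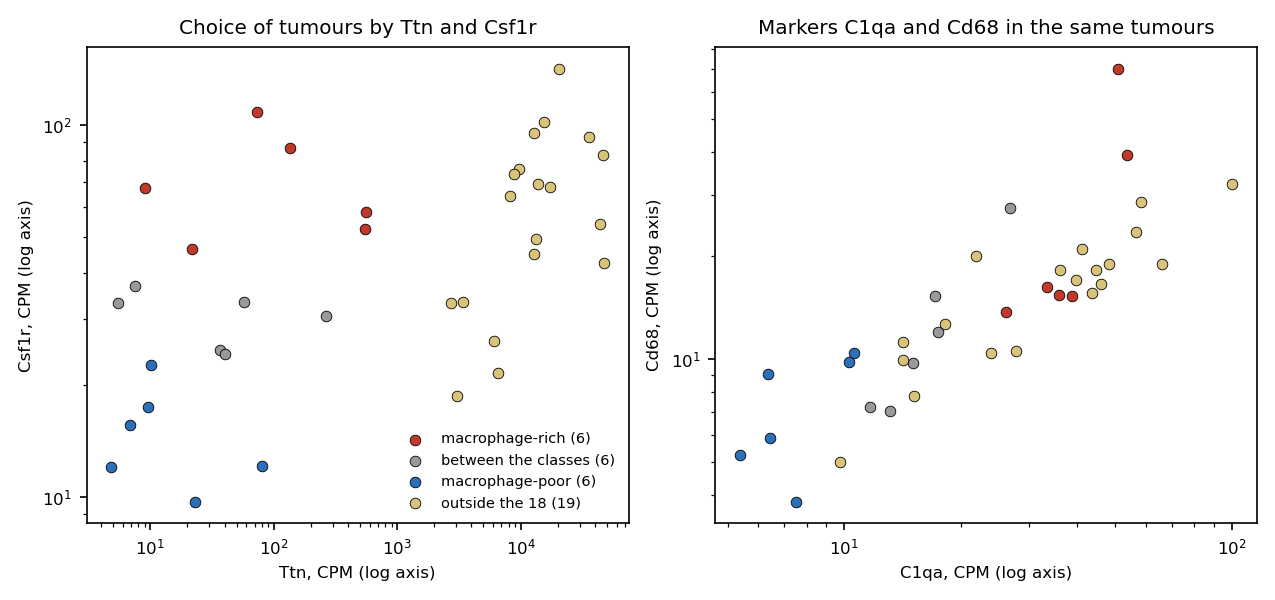
Left, Ttn against Csf1r in CPM (log axes) for the 37 hSS2 tumours, coloured by class; right, C1qa against Cd68 in CPM (log axes) for the same tumours. The 18 low-Ttn tumours lie at 562 CPM of Ttn or below, and the 6 macrophage-rich tumours hold at least 26.2 CPM of C1qa, above the 10.6 CPM maximum of the macrophage-poor class.

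The macrophage-rich tumours held more RNA of nearly the whole macrophage marker list. Of the 19 markers other than Csf1r, 15 lay higher in all 6 macrophage-rich tumours than in any macrophage-poor tumour, by at least 1 on the log2 scale. Because Csf1r chose the classes, this is a description without a test. Differences are of mean log2(CPM + 0.5), which understates change in low genes. By the same rule 297 of 20083 genes were higher (1.48%) and 13 were lower (0.0647%) in the macrophage-rich class. The median difference over all genes was 0.0. The median over the 20 markers, Csf1r among them, was 2.07, and their summed level was 396 to 1390 CPM in the macrophage-rich class against 120 to 209 CPM in the macrophage-poor class.

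C1qa, C1qb and C1qc encode the chains of C1q, the complement protein that tags dying cells for uptake. C1qa was 26.2 CPM at its lowest, 37.3 CPM at the median and 53.8 CPM at its highest in the macrophage-rich class. In the macrophage-poor class C1qa was 5.38, 6.97 and 10.6 CPM in the same order, so the classes did not overlap and differed by 2.29. C1qb differed by 2.08 and C1qc by 2.10, again without overlap. Cd68, a lysosomal membrane protein of macrophages, was 13.7, 15.8 and 70.1 CPM at its lowest, median and highest in the macrophage-rich class. It was 3.83, 7.44 and 10.4 CPM in the macrophage-poor class, a difference of 1.66. The 70.1 CPM were those of Arid1b-fl replicate 5, and without that library the difference of Cd68 was 1.34 and that of C1qa 2.21.

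The other markers moved with these. Lyz2, which encodes the antibacterial enzyme lysozyme, was 73.8 to 439 CPM in the macrophage-rich class and 8.75 to 38 CPM in the macrophage-poor class. Adgre1, the gene of the F4/80 antigen, was 11.3 to 44.2 CPM against 2.75 to 8.07 CPM. Cx3cr1, the fractalkine receptor, was 22.1 to 35.9 CPM against 3 to 12.2 CPM. These 3 genes did not overlap between the classes. Mertk, a receptor for apoptotic cells, was the marker with the smallest difference, at 38.1 to 54.2 CPM against 28.5 to 52.2 CPM (0.22). Pf4, Trem2 and Cd14 overlapped as well, with differences of 2.32, 2.29 and 1.46. Without Arid1b-fl replicate 5, 15 of the 19 markers still did not overlap and the list's median was 1.81. With control replicate 2 left out too, 16 of 19 did not overlap.

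**Figure D2:**
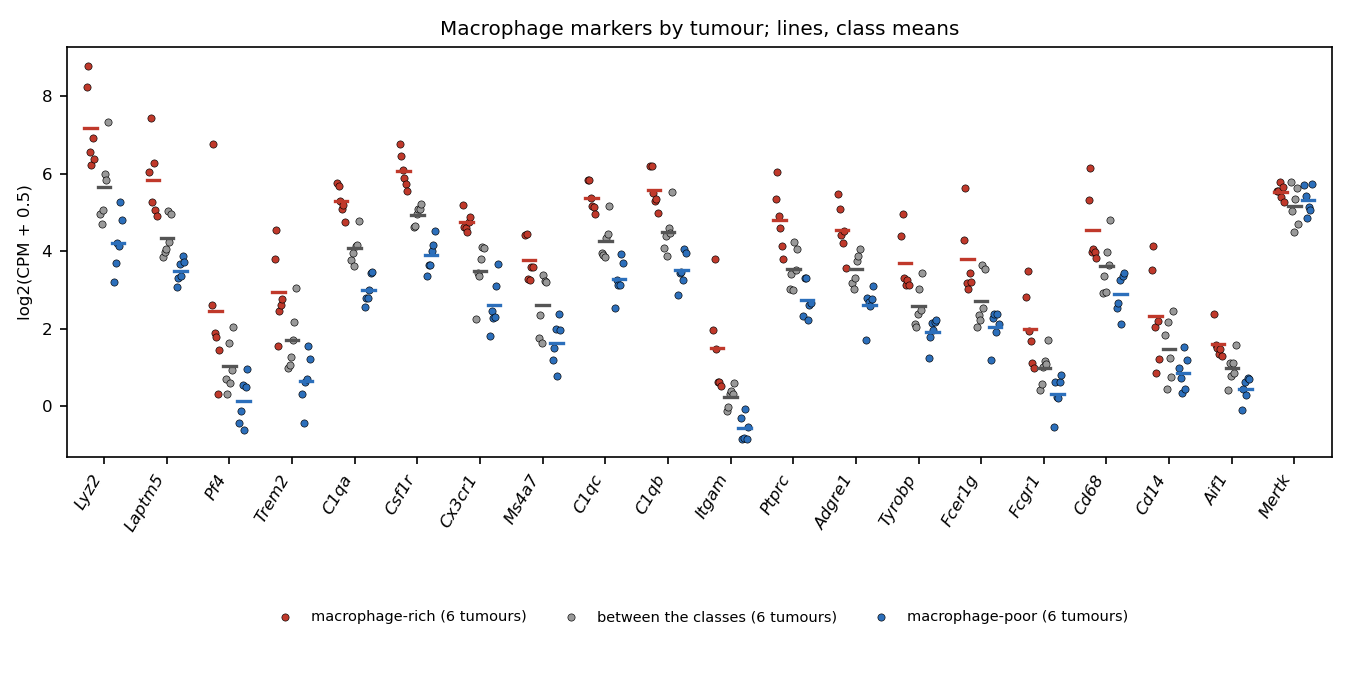
Level of 20 macrophage markers as log2(CPM + 0.5) in each of the 18 low-Ttn tumours; points are tumours, lines the means of the 6 tumours of a class. Csf1r chose the classes. Mertk overlaps between the classes (difference 0.22), while C1qa, C1qb and C1qc separate the macrophage-rich from the macrophage-poor tumours by 2.08 to 2.29.

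Start sites of 3 of these markers are shown because they are defining markers whose windows carry a short purine-rich motif that factors such as Spi1 (PU.1) bind. The windows run from 250 bases before to 50 bases after the RefSeq start (build GRCm38.p6, all on the minus strand and written on the gene's strand), with GAGGAA or its reverse complement TTCCTC in capitals. They are Cd68 at chr11:69666121-69666420, C1qb at chr4:136886151-136886450 and C1qc at chr4:136892865-136893164.
Cd68: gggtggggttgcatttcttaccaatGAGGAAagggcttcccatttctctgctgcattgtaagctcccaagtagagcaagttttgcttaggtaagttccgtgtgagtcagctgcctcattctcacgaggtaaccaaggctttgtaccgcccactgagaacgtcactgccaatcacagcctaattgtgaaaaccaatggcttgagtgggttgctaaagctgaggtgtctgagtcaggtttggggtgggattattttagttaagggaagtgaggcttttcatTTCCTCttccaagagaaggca
C1qb: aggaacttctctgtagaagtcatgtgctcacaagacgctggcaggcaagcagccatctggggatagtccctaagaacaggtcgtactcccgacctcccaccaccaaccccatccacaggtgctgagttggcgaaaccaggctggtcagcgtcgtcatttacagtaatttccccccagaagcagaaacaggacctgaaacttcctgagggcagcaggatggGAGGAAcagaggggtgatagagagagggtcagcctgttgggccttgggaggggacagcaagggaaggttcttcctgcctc
C1qc: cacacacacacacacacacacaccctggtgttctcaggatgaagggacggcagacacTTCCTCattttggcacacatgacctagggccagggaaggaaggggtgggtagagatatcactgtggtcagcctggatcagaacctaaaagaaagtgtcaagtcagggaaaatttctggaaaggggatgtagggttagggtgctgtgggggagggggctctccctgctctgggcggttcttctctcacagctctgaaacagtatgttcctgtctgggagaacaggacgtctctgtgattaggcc
The first match lay at position -225 in Cd68, -30 in C1qb and -193 in C1qc, counted from 0 at the first base after the 250. The motif stood in 28.3% of 32851 promoter windows, and in at least 1 window of 31.3% of 27025 genes. It stood in those of 11 of the 15 macrophage markers with a window (73.3%) and of 100 of the 218 higher genes with a window (45.9%). Among lower genes with a window, 4 of 6 held it (66.7%). The windows read covered 15 of the 20 markers, 218 of the 297 higher genes and 6 of the 13 lower genes. These shares therefore leave out part of each list. The windows of the markers Lyz2 and Fcer1g held 0 matches. A match is a run of letters in this window and was not tested as a binding site.

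The growth factor of the receptor was higher as well. Csf1 was 29.3, 32.6 and 70.5 CPM at its lowest, median and highest in the macrophage-rich class and 5.70, 10.3 and 15.8 CPM in the macrophage-poor class, a difference of 1.94 without overlap. Il34, the second ligand, was 1.79 to 5.69 CPM against 0.485 to 2.76 CPM, which overlapped (1.15). Spi1, the transcription factor of myeloid cells, differed by 1.76 and Csf2rb, the shared receptor chain for granulocyte-macrophage growth factor, by 1.79, both without overlap. In the list of the Csf1r pathway and macrophage factors, 6 of 14 genes including Csf1r were higher and 0 were lower, with Irf8 and Runx1 as the other 2.

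Part of the complement, scavenger and Fc receptor genes were higher in the macrophage-rich class. In the complement list, 7 of 17 genes were higher and 0 lower, with a median difference of 1.13. C3, the central protein of the cascade, was 1.35 to 25.2 CPM in the macrophage-rich class and 0 to 0.375 CPM in the macrophage-poor class. C4b, which acts upstream of it, was 3.51 to 23.5 CPM against 0.0612 to 1.25 CPM. Their differences of 3.26 and 3.49 were among the 10 largest of the genes that did not overlap. C3ar1, the receptor for the C3a fragment, differed by 2.56.

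Among phagocytic and scavenger receptors, 8 of 19 genes were higher, with a median of 1.85. Mrc1, the mannose receptor CD206, was 23.6, 43.2 and 67.5 CPM at its lowest, median and highest against 1.06, 8.08 and 16.8 CPM (2.80). Siglec1, the sialic acid receptor CD169, was 4.25 to 23.1 CPM against 0.511 to 3.94 CPM (2.55). Neither gene overlapped between the classes. In the Fc receptor and signalling list, 7 of 12 genes were higher (median 1.61), among them the inhibitory receptor Fcgr2b (2.36) and the activating receptor Fcgr3 (1.93). The summed level of this list was 90.7, 117 and 361 CPM at its lowest, median and highest in the macrophage-rich class and 25.1, 127 and 172 CPM in the macrophage-poor class, which overlapped. Of 24 lysosomal genes only Cd68, Lyz2, Ctss and Laptm5 were higher by this rule, and the list's median was 0.26. Ctss encodes cathepsin S, which trims the MHC class II chaperone, and was 26.9 to 99.4 CPM against 5.33 to 11.3 CPM.

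Genes of resident and of lipid-laden macrophages differed unevenly. Folr2, Mrc1, F13a1 and Cbr2 of 15 resident macrophage genes were higher. F13a1, a coagulation factor subunit, was 2.89 to 108 CPM in the macrophage-rich class and 0.102 to 2.17 CPM in the macrophage-poor class (3.76, and 3.17 without Arid1b-fl replicate 5). Of 15 lipid-associated macrophage genes, Cd9, Lgals3 and Itgax were higher. Spp1, which encodes osteopontin, overlapped widely, at 1.15, 22.5 and 346 CPM against 0.551, 1.82 and 4.65 CPM. Among markers of related cells, Ccr2 and Plac8 of 10 monocyte genes and Flt3, Itgax and Irf8 of 17 dendritic cell genes were higher. Only 2 of 15 neutrophil genes were high enough to describe, and of these Csf3r was higher (2.18 to 66.5 CPM against 0.750 to 1.38 CPM).

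Genes of antigen presentation were higher on average, with overlap between the classes for most. All 13 genes described of the MHC class II list had a positive difference (median 1.16). This list also holds Ciita and the costimulatory ligands Cd86 and Cd80. Cd86 and Cd80 were the 2 that did not overlap, so no MHC class II chain passed the rule. Cd86 was 2 to 6.47 CPM against 0.346 to 1.43 CPM. H2-Aa, an MHC class II chain, was 20.3, 42.3 and 95.6 CPM in the macrophage-rich class and 10.7, 15.8 and 24.0 CPM in the macrophage-poor class (1.37), with overlap. Ciita, the master activator of these genes, was 2.16 to 10.6 CPM against 0.919 to 2.63 CPM (1.69). No gene of the MHC class I list (16 genes, median 0.59) or of the interferon-stimulated list (30 genes, median 0.58) was higher by the rule.

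No T cell gene passed the rule, and most were low. Cd3e, a chain of the T cell receptor complex, was 0.118 to 0.958 CPM in the macrophage-rich class and 0.0625 to 0.262 CPM in the macrophage-poor class. Cd8a was 0 to 0.894 CPM against 0 to 0.153 CPM. Both genes overlapped between the classes, and at these counts a difference was not detectable at this depth. Cd247, a signalling chain of the T cell receptor, was better counted. It was 2.37, 5.64 and 30.5 CPM at its lowest, median and highest against 1.10, 1.75 and 4.04 CPM (1.56). Trac, the constant region of the receptor's alpha chain, was also low in most tumours. It was 0.118, 0.533 and 1.09 CPM against 0.153, 0.534 and 22.3 CPM (-0.74), with near-equal medians. Of 17 T cell genes, 0 were higher and 0 lower by the rule, 14 had a positive difference and the median was 0.39. Of the B and plasma cell list, 8 of 15 genes were described and 0 were higher. Pax5, a B cell transcription factor, was 2.61 to 32.1 CPM against 0.428 to 7.81 CPM.

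Several cytokine and chemokine genes were higher without overlap. Il33, an alarmin of stromal cells, was 2.12, 4.62 and 6.71 CPM at its lowest, median and highest in the macrophage-rich class and 0.306, 0.433 and 0.787 CPM in the macrophage-poor class (2.23). The receptors Il6ra (2.04), Tnfrsf1b (1.93) and Il10ra (1.92) and the B cell survival factor Tnfsf13b (1.04) also did not overlap. In the list as a whole, 6 of 15 genes were higher and the median was 1.08. Of 22 chemokine genes 5 were higher, among them Ccl9, Cxcl16, Ccr2 and Cx3cr1. Among 11 checkpoint genes, Havcr2 (TIM-3, 1.85) and Vsir (VISTA, 1.61) were higher. Sirpa, which receives the signal of CD47, overlapped narrowly at 30.7 to 100 CPM against 4.25 to 34.7 CPM (1.81), and Cd274 (PD-L1) differed by 0.62.

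Some stromal genes separated the classes as widely as macrophage genes did. Acta2, the smooth muscle actin of myofibroblasts and vessel walls, was 25.2, 68.1 and 303 CPM at its lowest, median and highest in the macrophage-rich class. It was 3.19, 4.62 and 8.86 CPM in the macrophage-poor class, the largest difference of the genes that did not overlap (3.91, and 3.53 without Arid1b-fl replicate 5). Acta2 lies at chr19:34241090-34255590 in build GRCm38. Col1a2, a chain of type I collagen, was 113, 153 and 1620 CPM at its lowest, median and highest against 10.5, 21.7 and 49.4 CPM (3.21). In the 6 tumours between the classes Col1a2 was 69.8, 227 and 469 CPM, a higher median than in the macrophage-rich class. Its partner chain Col1a1 overlapped, at 820, 1620 and 4920 CPM against 89.6, 1370 and 2630 CPM. Prelp and Cilp, matrix proteins of connective tissue and cartilage, differed by 3.34 and 3.71.

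Across the stromal lists the difference was not uniform. Dpt, Mfap5, Thy1, Acta2 and Tagln of 19 fibroblast genes were higher (median 1.44), while Pdgfra, a receptor of mesenchymal cells, was 194 to 582 CPM against 316 to 924 CPM. Of 17 collagens only Col1a2 was higher (median 0.49), and of 25 matrix genes 2 were higher (median 1.10), Bgn among them. The summed collagen level was 6000, 6730 and 12900 CPM at its lowest, median and highest in the macrophage-rich class and 3310, 8170 and 10600 CPM in the macrophage-poor class, so the classes overlapped and the median was lower in the macrophage-rich class. All 20 endothelial genes had positive differences of 0.11 to 1.04 and 0 were higher by the rule. Pecam1, an adhesion protein of endothelium, was 61.3 to 144 CPM against 30.1 to 118 CPM.

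Skeletal muscle and erythroid genes had positive differences without passing the rule. The 19 skeletal muscle genes all had positive differences (median 1.35) and 0 were higher by the rule. Their summed level was 89.1 to 1250 CPM in the macrophage-rich class and 35 to 216 CPM in the macrophage-poor class, against 5770 to 99400 CPM in the 19 hSS2 tumours outside the 18. With the 14 lowest-Ttn tumours in place of 18, the muscle median was 0.02 and the macrophage marker median 1.57. That setting takes Pbrm1-fl replicate 4, control replicate 2 and Arid1b-fl replicate 5 out of the macrophage-rich class. Tumours with 33.2 to 36.9 CPM of Csf1r take their places, so less muscle and a smaller Csf1r contrast cannot be told apart here. The 6 erythroid genes all had positive differences and 0 passed, with a median of 2.68, and of 1.22 without Arid1b-fl replicate 5. Hba-a1 and Hba-a2 are near-identical copies, as are Hbb-bs and Hbb-bt, and counts may be split within each pair. Des, the intermediate filament of muscle and pericytes, was higher (3.19 to 49.1 CPM against 0.818 to 2.91 CPM). The part of muscle and blood RNA in the other differences was not tested.

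**Figure D3:**
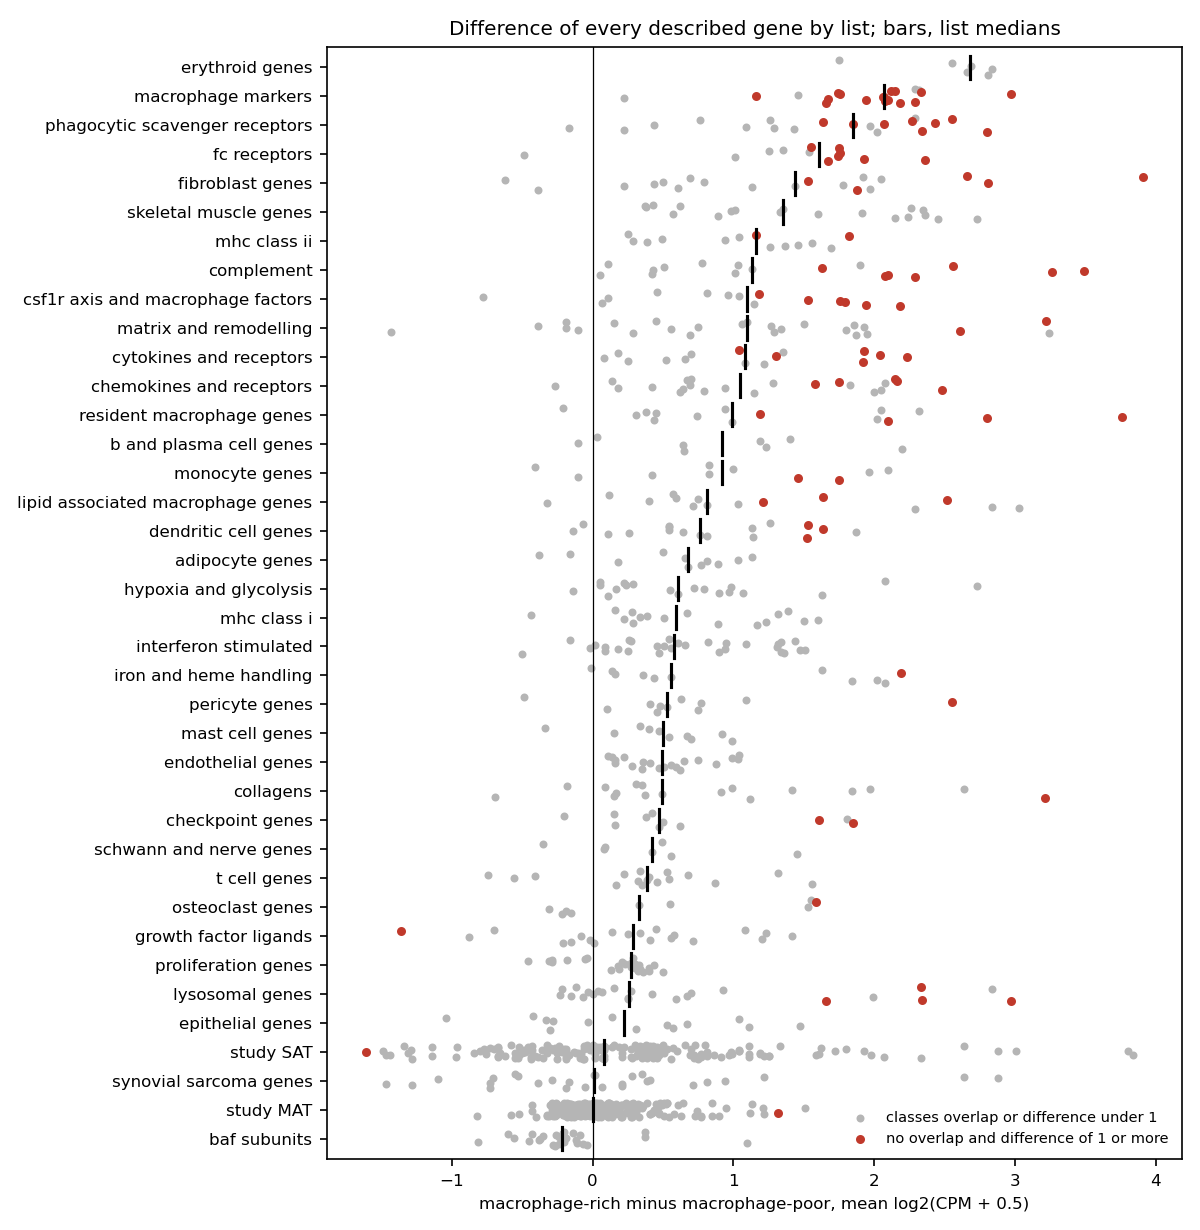
Macrophage-rich minus macrophage-poor difference of mean log2(CPM + 0.5) for every described gene, by gene list; black bars are list medians and red points genes whose classes do not overlap with a difference of 1 or more in either direction. Macrophage markers centre on 2.07 and phagocytic receptors on 1.85, while synovial sarcoma genes centre on 0.01 and BAF subunits on -0.22; study SAT and study MAT are genes that the study listed as activated and as maintained in sarcomagenesis.

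No synovial sarcoma gene separated the classes by the rule. Of 28 synovial sarcoma genes, 0 were higher and 0 lower by the rule, and their median difference was 0.01. Tle1, a corepressor used to diagnose the tumour, was 193 to 368 CPM in the macrophage-rich class and 190 to 416 CPM in the macrophage-poor class. Sox2, a stem cell transcription factor, was 3.49, 34.2 and 52.6 CPM against 38.5, 40.8 and 110 CPM (-1.28), with overlap. Zic1, a neural transcription factor, was 1.66, 64.5 and 200 CPM against 0.0612, 0.630 and 129 CPM (2.88), again with overlap. Of the genes that the study lists as activated in sarcomagenesis, 184 were described, 0 were higher and Nell1 alone was lower. Their median difference was 0.08, and 104 of the 184 differences were positive. Among the largest was that of En2, at 24.9, 88.7 and 265 CPM against 0.735, 1.73 and 96.2 CPM (3.84). Nxph1 (3.80) and Lrp2 (3.01) differed widely as well, and all of these overlapped between the classes. Of 353 described genes listed as maintained, only Trpv4, a calcium channel, was higher. The BAF subunit list had a median of -0.22, and 0 of 27 members passed the rule. Of these, 3 had a positive difference, and Ss18 (-0.35), Bicral (-0.43) and Bcl7a (-0.60) lay below without overlap, as did 128 of all 20083 genes. Bcl7a was 50.6 to 76.2 CPM against 76.3 to 108 CPM.

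Proliferation genes overlapped between the classes. Mki67, a marker of dividing cells, was 194, 480 and 710 CPM at its lowest, median and highest in the macrophage-rich class and 169, 313 and 699 CPM in the macrophage-poor class. Of 26 proliferation genes 0 passed the rule, and the median difference was 0.27. Of 19 hypoxia and glycolysis genes 0 passed, with a median of 0.61 that was 0.31 without Arid1b-fl replicate 5. Hmox1, which breaks down heme, was 21.6, 35.2 and 800 CPM against 9.35, 15.4 and 34 CPM.

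The 13 genes that were lower in the macrophage-rich class included signalling and adhesion genes. Pde3a, a phosphodiesterase that degrades cyclic AMP, was 11.6, 46.6 and 91.7 CPM at its lowest, median and highest in the macrophage-rich class and 109, 189 and 423 CPM in the macrophage-poor class (-2.27). Nell1, a secreted protein of bone formation, was 25.4 to 112 CPM against 127 to 267 CPM (-1.61). Bmp4, a growth factor of the TGF-beta family, was 24.8 to 97.2 CPM against 106 to 200 CPM (-1.36). Crabp2, which carries retinoic acid, differed by -1.36 and Tjp3, a tight junction protein, by -1.49. Pcdhb6, Pcdhb4 and Pcdhb5, clustered protocadherins that share sequence, differed by -1.65, -1.32 and -1.06. In the 6 tumours between the classes, the medians of Pde3a, Nell1 and Bmp4 were 60.4, 69.1 and 61.6 CPM, with maxima of 195, 179 and 577 CPM. These medians lay nearer those of the macrophage-rich class (46.6, 63.9 and 55.2 CPM) than those of the macrophage-poor class (189, 192 and 114 CPM). Crabp2 and Tjp3 went the other way. The median of Crabp2 was 79.1 CPM between the classes, 34.5 CPM in the macrophage-rich class and 65.2 CPM in the macrophage-poor class. With the 14 lowest-Ttn tumours, 5 of the 13 were still lower by the rule and the difference of Crabp2 was -0.40. With classes ranked on Csf1r, Cd68 and C1qa together, 7 of the 13 were.

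**Figure D4:**
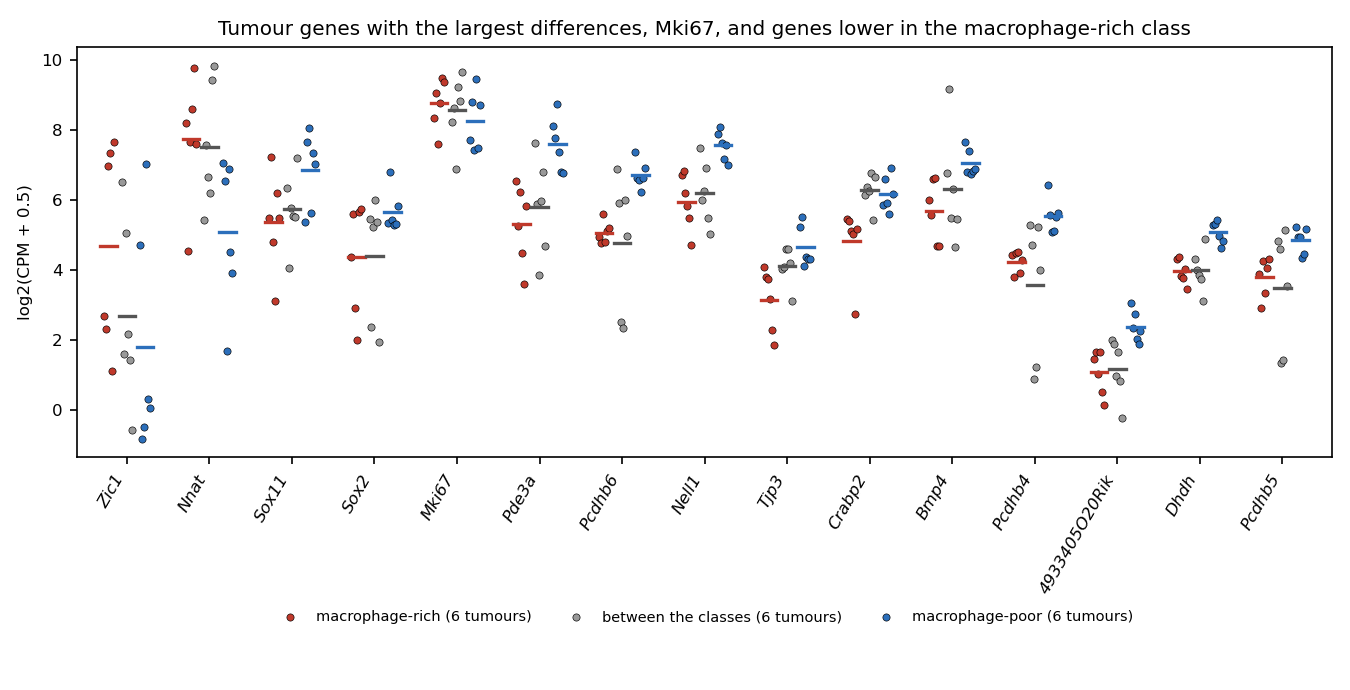
Level as log2(CPM + 0.5) of 4 synovial sarcoma genes with large differences, of Mki67 and of 10 genes lower in the macrophage-rich class, in each of the 18 low-Ttn tumours; points are tumours, lines class means. Zic1, Nnat, Sox11, Sox2 and Mki67 overlap between the macrophage-rich and macrophage-poor tumours, while Pde3a (-2.27), Nell1 (-1.61) and Bmp4 (-1.36) do not.

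To test whether the same genes follow Csf1r elsewhere, the change of every gene per doubling of Csf1r was fitted in the 19 hSS2 tumours outside the 18, where Csf1r ranged from 18.7 to 141 CPM. These tumours hold muscle (Ttn from 2712 to 47260 CPM), so log2 Ttn and the genotype group were terms of the fit. By edgeR's quasi-likelihood test with Benjamini-Hochberg adjustment, 1262 of 20500 genes rose with Csf1r (6.16%) and 612 fell (2.99%). Macrophage markers rose together, 15 of 19 past the adjusted threshold of 0.05 and 0 in the other direction, with a median slope of 1.05 against -0.02 over all genes. C1qc rose by 0.91 ± 0.081 (SE, log2 per doubling of Csf1r, adjusted p = 6.2e-05, edgeR). C1qa rose by 1.05 ± 0.098 (adjusted p = 6.9e-05, edgeR). Csf1 rose by 0.53 ± 0.088 (adjusted p = 0.0018, edgeR), and Spi1 by 1.09 ± 0.136 (adjusted p = 0.00031, edgeR). Mertk had a slope of 0.12 ± 0.150 (adjusted p = 0.69, edgeR).

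Fc receptor, MHC class II and complement genes also rose with Csf1r in these 19 tumours. In the Fc receptor list 11 of 12 genes rose, in the MHC class II list 12 of 13 and in the complement list 11 of 17, and none of these members fell. Cd74, the MHC class II invariant chain, rose by 1.14 ± 0.112 (adjusted p = 7.6e-05, edgeR), and Il33 by 2.08 ± 0.29 (adjusted p = 0.00065, edgeR). Among T cell genes 12 of 17 rose, with a median slope of 1.71. Cd3e reached 9.14 CPM in these tumours, with a median of 1.20 CPM, and rose by 2.18 ± 0.469 (adjusted p = 0.00915, edgeR). With log2 Cd3e as a further term, 124 genes rose and 2 fell, 6 of 19 macrophage markers still passed and their median slope was 0.86. With that term 1 of 12 Fc receptor genes, 4 of 13 MHC class II genes, 4 of 17 complement genes, 1 of 17 T cell genes and 1 of 19 fibroblast genes rose. With log2 Xist as a further term, 696 genes rose and 166 fell, and 15 of 19 markers passed. Without Arid1b-fl replicate 1, 733 rose and 207 fell.

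Stromal genes rose in part, and proliferation genes did not pass the test. Of 19 fibroblast genes 9 rose, and of 17 collagens 7 rose. Col1a2 rose by 1.27 ± 0.235 (adjusted p = 0.0038, edgeR), and C3 by 2.41 ± 0.424 (adjusted p = 0.0027, edgeR). Aebp1, a secreted factor of collagen-rich tissue, rose by 1.53 ± 0.148 (adjusted p = 7.5e-05, edgeR), whereas between the low-muscle classes it differed by -0.63 with overlap. Of 28 synovial sarcoma genes 2 rose and 3 fell, one of the latter being Zic1 (slope -2.02 ± 0.529, adjusted p = 0.0257, edgeR), whose difference between the classes was 2.88. Of 26 proliferation genes and 27 BAF subunits, 0 passed in either direction, at median slopes of -0.58 and -0.05. Genes of mitochondrial energy metabolism led the falling genes, among them Atp5g3, an ATP synthase subunit (-0.55 ± 0.07, adjusted p = 0.00032, edgeR), and Cs, citrate synthase (-0.43 ± 0.058, adjusted p = 0.00047, edgeR). With 25 tumours in place of 19, the slope of Cs was 0.02. Both overlapped between the classes (differences of 0.04 and -0.02).

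The 297 genes higher in the macrophage-rich class and the genes that rose in the 19 tumours come from separate animals. Of the 297, 295 were tested in the 19, and 202 of them (68.5%) rose while 0 fell, with a median slope of 1.04. Of the 1183 rising genes described in the 12 tumours, these 202 are 17.1%. Of the 13 lower genes, none passed the test in the 19 in either direction, 7 had positive slopes and the median was 0.22. Pde3a had a slope of 0.97 ± 0.335 (adjusted p = 0.085, edgeR) and Bmp4 one of -0.02 ± 0.171 (adjusted p = 0.97, edgeR).

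In the 9 hSS1 tumours, Csf1r ranged from 14 to 59.5 CPM, and the same fit called 0 of 17785 genes (0%). At an unadjusted p under 0.05 there were 2028 genes, 1163 rising and 865 falling. Without Pbrm1-fl replicate 3 there were 649 genes, and without Pbrm1-fl replicate 2 there were 1013. In all 9, DESeq2's Wald test called 362 rising and 268 falling. Of 19 macrophage markers, 18 had positive slopes and 13 of these had an unadjusted p under 0.05. C1qc rose by 0.90 at an unadjusted p of 0.00018 in edgeR, which did not pass the adjustment. Of 7 resident macrophage genes only 1 had a positive slope, with slopes of -0.03 for Mrc1 and -0.92 for F13a1. Their median was -0.34, and 1.52 without Pbrm1-fl replicate 3. Of 15 complement genes 10 had positive slopes (median 0.53), while C3 had one of -0.77. Interferon-stimulated genes had a median slope of 1.28, with 18 of 24 rising at an unadjusted p under 0.05, and MHC class I genes one of 1.14, with 13 of 16. Collagens had a median of -0.44, and Col1a2 a slope of -1.95 (unadjusted p = 0.053, edgeR), opposite in sign to the 19 hSS2 tumours. Without Pbrm1-fl replicate 3 the collagen median was -0.01, while the slope of Col1a2 was still below 0. The difference in slope between hSS1 and hSS2 was not tested. On simulated data at this size, the fit recovered 0% of genes with a slope of 1, against 54% in the 19 hSS2 tumours.

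**Figure D5:**
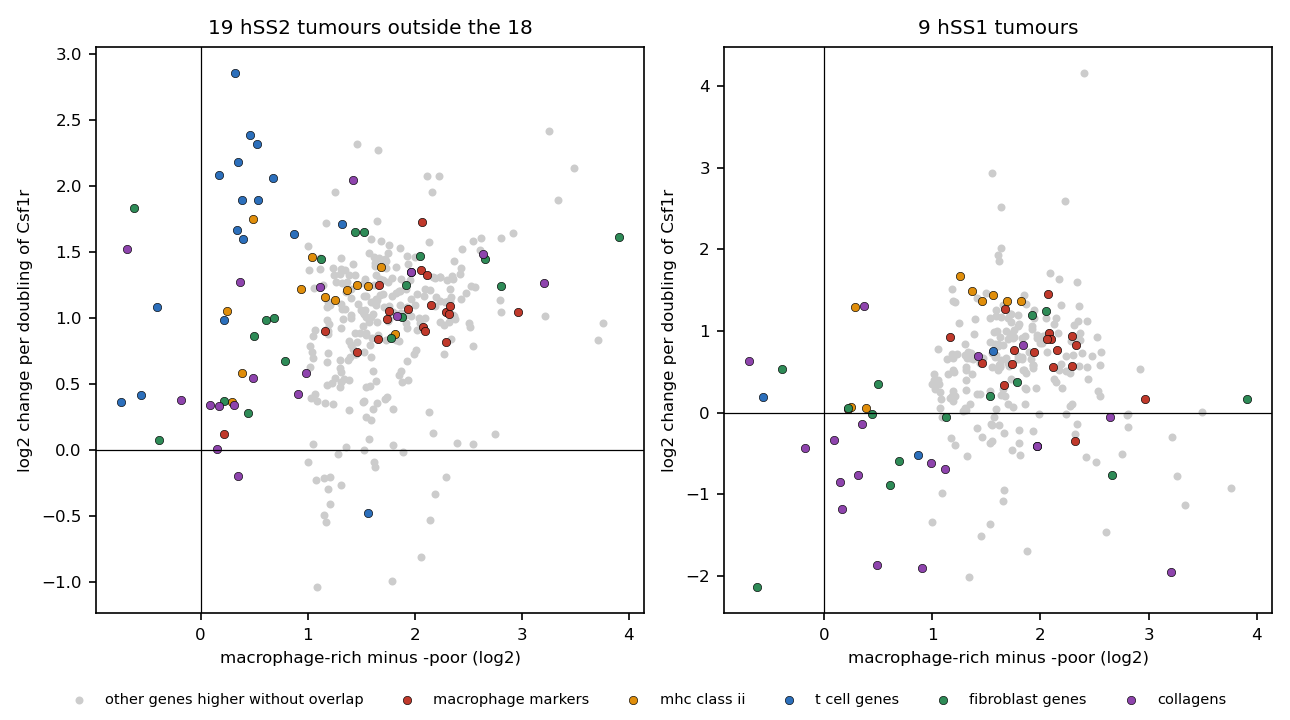
Difference between the macrophage-rich and macrophage-poor classes (x axis, log2) against the log2 change per doubling of Csf1r (y axis) in the 19 hSS2 tumours outside the 18 (left) and in the 9 hSS1 tumours (right); each point is a gene, coloured by list, grey points being other genes higher without overlap. Macrophage markers and MHC class II genes lie above 0 on the left (median slopes of 1.05 and 1.21), T cell genes lie higher on the left (1.71) than their class differences (0.39), and collagens lie mostly below 0 on the right (median -0.44, and -0.01 without Pbrm1-fl replicate 3).

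Every genotype group was present in both classes. The macrophage-rich class held 2 controls, 2 tumours of the Pbrm1-fl group, 1 of the Arid1a-fl group and 1 of the Arid1b-fl group, and the macrophage-poor class 1, 2, 1 and 2. Fisher's exact test of class against genotype group gave p = 1, and that of class against the mouse number range also gave p = 1. These tests of 6 against 6 tumours do not show that the classes are alike in genotype, and they count control replicate 9 and Arid1b-fl replicate 2 by their labels. Over all 37 hSS2 tumours, log2 Csf1r differed from the controls by 0.09 in the Pbrm1-fl group, -0.35 in the Arid1a-fl group and -0.04 in the Arid1b-fl group. By two-sided permutation tests the p-values of these 3 comparisons were 0.842, 0.329 and 0.912, all 0.912 after Benjamini-Hochberg adjustment. Mean Csf1r was 48.1 ± 22.5 CPM in the controls (SD, n = 13), 64.1 ± 46.6 CPM in Pbrm1-fl (n = 8), 40.4 ± 29 CPM in Arid1a-fl (n = 8) and 52.2 ± 30.3 CPM in the Arid1b-fl group (n = 8).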

How the data were processed

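Total RNA of 46 tumours was depleted of ribosomal RNA and sequenced with strand kept. The authors aligned reads with STAR 2.7.11 to mm10 and made counts per gene with featureCounts 1.6.3, per the labels and methods. The deposited counts are raw, in 1 table of 37 hSS2 and 1 of 9 hSS1 libraries. GENCODE M21 gave 91.4% and 91.2% of gene IDs a symbol.

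CPM was each count over its library total. Genes that edgeR's filterByExpr kept in the hSS2 table (20083) were described. The tumours and gene lists were chosen with earlier results of these data known. Genes were named as all macrophage markers, up to 4 genes a list with the largest difference at 1 CPM or more and its defining genes, the 10 largest non-overlapping differences each way and 8 slopes of smallest adjusted p each way; others were added after their values were seen. Slopes on log2 Csf1r used edgeR 4.0.16 (TMM, quasi-likelihood, Benjamini-Hochberg, 0.05) in R 4.3.3, without Csf1r; DESeq2 1.42.0 was an alternative. Tested on simulated slopes of 0.5 and 1, the hSS2 fit recovered 23% and 54% of the changed genes, with 3 false calls of 80. P-values measure the spread between these tumours. Some genes are not reported here.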

Additional observations from a re-analysis of the deposited data

Results flagged for a closer look

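In 76 comparisons of a list's mean log2(CPM + 0.5) within a class of 6 tumours, a single tumour lay far from the other 5 in 2, by Dixon's 95% criterion. Chance alone marks about 1 in 20 such groups. Both were Arid1b-fl replicate 5 in the macrophage-rich class. Its erythroid genes stood at 11.94 against 4.65 in the next tumour, a gap of 0.735 of the class's range. Its genes of the study's maintained list stood at 5.37 against 5.53 in the next tumour, the lowest of the class, with a gap of 0.727 of the range.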

How the results depend on the processing

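The counts moved with the size and choice of the classes, which changes by construction how easily 2 groups separate. Against 297 genes higher and 13 lower, there were 195 and 8 with a pseudocount of 2, 768 and 58 with 4 tumours a class, 89 and 2 with 8, 136 and 11 with the 14 lowest-Ttn tumours and 285 and 8 with the 22 lowest. Within mouse numbers under 1000 (2 against 2 tumours) there were 1369 and 309, from 1000 to under 2000 (1 against 2) 1864 and 1087, and from 2000 (3 against 2) 1343 and 324, with 17 or 18 of 19 markers higher in each range. TMM scaling, DESeq2 size factors, no filter and ranking on 3 markers stayed within 1.5 times in both counts, but ranking on 3 markers shared 178 of the 297 higher and 7 of the 13 lower genes. The 14-tumour and 22-tumour settings shared 5 and 4 of the 13. Leaving out each tumour gave 311 to 384 higher and 11 to 29 lower genes, the lower count reaching 29 without Pbrm1-fl replicate 8, 24 without control replicate 10, 21 without Pbrm1-fl replicate 5 and 20 without control replicate 9, and 14 to 16 markers. Leaving out Arid1b-fl replicate 5 and control replicate 2 together, chosen after seeing the data, gave 415 and 19.

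In the 19 hSS2 tumours, against 1262 rising and 612 falling genes, falling genes were 1024 with DESeq2's Wald test, 257 without a filter, 1077 without the genotype term and 238 with 25 tumours. Without the Ttn term 592 fell, but only 279 of them were among the 612. With 25 tumours 117 of the 238 were among the 612, and without the genotype term 397 of the 1077. A threshold of 0.01 left 516 and 128. The terms chosen after seeing the data left 696 and 166 (Xist) and 124 and 2 (Cd3e). Leaving out each tumour gave 733 to 1358 rising and 207 to 800 falling, with 733 and 207 without Arid1b-fl replicate 1, 816 and 279 without control replicate 11, and 287, 381, 389 and 399 falling without control replicate 4, Arid1b-fl replicates 4 and 7 and control replicate 5. The slope of Cs was 0.02 with 25 tumours; the cause was not tested. In hSS1, DESeq2's Wald test called 362 and 268, and 0 were called without each tumour in turn. Fisher p-values with 8 tumours a class were 0.608 and 0.674, and none of the 3 Csf1r comparisons by genotype passed under the alternatives. No paired analysis was possible because litters are not given in the labels and each mouse has its own number, although the study used littermates as controls. Differences of Cd3e and Cd8a are limited by depth.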

Other observations

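Mast cell genes had a median difference of 0.50 between the classes, with 0 of 10 passing the rule. Cpa3, a mast cell protease, was 1.29 to 25 CPM in the macrophage-rich class and 0 to 71.3 CPM in the macrophage-poor class. Atp6v0d2, an osteoclast proton pump subunit, was the only gene of 9 described in its list to pass, at 0.308 to 5.04 CPM against 0 to 0.139 CPM. Slc11a1, an iron transporter of phagosomes, was 5.53 to 31.2 CPM against 0.750 to 3.15 CPM (2.19) and was the only one of 11 iron and heme genes to pass. In the 19 hSS2 tumours it rose by 1.09 ± 0.14 per doubling of Csf1r (adjusted p = 0.00032, edgeR). Of the remaining lists, 0 genes passed among 11 adipocyte, 7 Schwann cell, 4 natural killer cell and 14 epithelial genes. Among 20 growth factor ligands Bmp4 alone passed, and Hgf, the ligand of Met, differed by 1.42 with overlap and rose by 1.89 in the 19 tumours (adjusted p = 0.009, edgeR).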
